A study of Mus musculus with 2 samples.

Results

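Troponin genes were examined for their position relative to HIRA peaks in the embryonic mouse heart. The 8 genes of the family, Tnni1, Tnni2, Tnni3, Tnnt1, Tnnt2, Tnnt3, Tnnc1 and Tnnc2, were taken by name from the 21938 protein-coding genes of the GENCODE M21 annotation, and all 8 were found. For each gene the distance of its body and of its transcript starts to the nearest peak on either side was read from a list of 6624 peaks. The peaks came from 1 chromatin immunoprecipitation library, made with the WC15 antibody to HIRA from a pool of 30 wild type (WT) CD1 hearts at E12.5, and set by the authors against 1 input library of the same pool. The study aimed to map HIRA in the heart in order to find genes that it might regulate directly. With all hearts in 1 pool there were no replicates, so no error can be put on a peak, and every distance below is a description without a test. The list holds positions and neither peak heights nor expression values, so the labelled tissue could not be checked against heart markers here.

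Troponin is the calcium switch of striated muscle. Troponin C binds calcium, troponin I holds back the interaction of actin and myosin, and troponin T anchors the complex to tropomyosin on the thin filament. Troponin I and T each have forms for fast skeletal, slow skeletal and cardiac muscle, troponin C has a fast form and one that slow and cardiac muscle share, and in mammals the I and T genes stand as neighbours in pairs, whereas the C genes stand alone. HIRA is a chaperone that loads the histone variant H3.3 onto chromatin outside of DNA replication. A peak is a stretch where the precipitated DNA exceeds the input, and it says nothing by itself about which gene it acts on.

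The sequences of the 5 peaks nearest to a troponin gene are shown because their repeats and motifs differ between the loci. They were read from the plus strand of mm10 (GRCm38.p6). Capitals mark matches on either strand to GAGAGAGA, the consensus repeat that the study drew from all its peaks, to TNAAGTG, a core site of the cardiac factor NKX2-5, and to CANNTG, the E-box read by myogenic factors.
Tnni2 and Tnnt3, central 300 bases of the peak (chr7:142459470-142459769): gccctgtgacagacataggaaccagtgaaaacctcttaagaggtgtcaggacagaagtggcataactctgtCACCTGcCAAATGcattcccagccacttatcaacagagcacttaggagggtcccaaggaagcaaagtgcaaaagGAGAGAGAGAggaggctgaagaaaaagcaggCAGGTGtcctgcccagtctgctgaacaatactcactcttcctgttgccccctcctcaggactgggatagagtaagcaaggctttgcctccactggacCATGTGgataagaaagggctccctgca
Tnni2 and Tnnt3, left end of the same peak (chr7:142459187-142459221): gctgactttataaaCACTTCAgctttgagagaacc
Tnni1 and Tnnt2 (chr1:135667651-135667823): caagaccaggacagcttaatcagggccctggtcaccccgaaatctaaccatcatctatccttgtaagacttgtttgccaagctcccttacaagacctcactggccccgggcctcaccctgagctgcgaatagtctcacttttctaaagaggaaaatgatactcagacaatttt
Tnni3 and Tnnt1, first 300 bases of the peak (chr7:4389525-4389824): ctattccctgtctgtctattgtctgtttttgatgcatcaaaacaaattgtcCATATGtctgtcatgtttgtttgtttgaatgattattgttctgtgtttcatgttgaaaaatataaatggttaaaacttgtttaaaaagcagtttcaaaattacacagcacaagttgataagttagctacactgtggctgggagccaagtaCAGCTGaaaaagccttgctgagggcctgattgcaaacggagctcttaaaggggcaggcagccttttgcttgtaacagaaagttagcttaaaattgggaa
Tnnc1 (chr14:31215000-31215189): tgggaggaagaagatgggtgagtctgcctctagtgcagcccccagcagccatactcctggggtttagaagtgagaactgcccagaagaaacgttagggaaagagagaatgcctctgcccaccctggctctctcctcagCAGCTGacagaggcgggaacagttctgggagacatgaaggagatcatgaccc
Tnnc2 (chr2:164693693-164693864): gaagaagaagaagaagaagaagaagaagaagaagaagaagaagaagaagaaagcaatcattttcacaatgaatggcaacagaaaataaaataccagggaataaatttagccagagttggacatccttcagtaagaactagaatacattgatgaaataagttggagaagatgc

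No troponin gene held a peak in its body. This was 0 of 8 genes, where 8.9% of all protein-coding genes had a peak in the body. Within 5 kb there was 1 of 8, namely Tnnc1, against 11.1% of protein-coding genes. Within 50 kb there were 3 of 8, Tnnc1, Tnni2 and Tnnt3, against 29.4%, and within 100 kb 4 of 8, with Tnnc2 added, against 45.7%. With 8 genes at 5 loci these shares in the full list are near those of the background. In lists cut by width, soft-masked share or single-copy words the background shares were lower, as given in the closing section. The nearest peak was at a median of 97.5 kb over the 8 genes, with a range of 3.27 to 169 kb. The median of all protein-coding genes was 116 kb, with quartiles of 38.3 and 246 kb. Troponin genes are short, with a median body of 8.87 kb against 17.4 kb for all protein-coding genes, and the part of length in these counts was not tested.

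**Figure D1:**
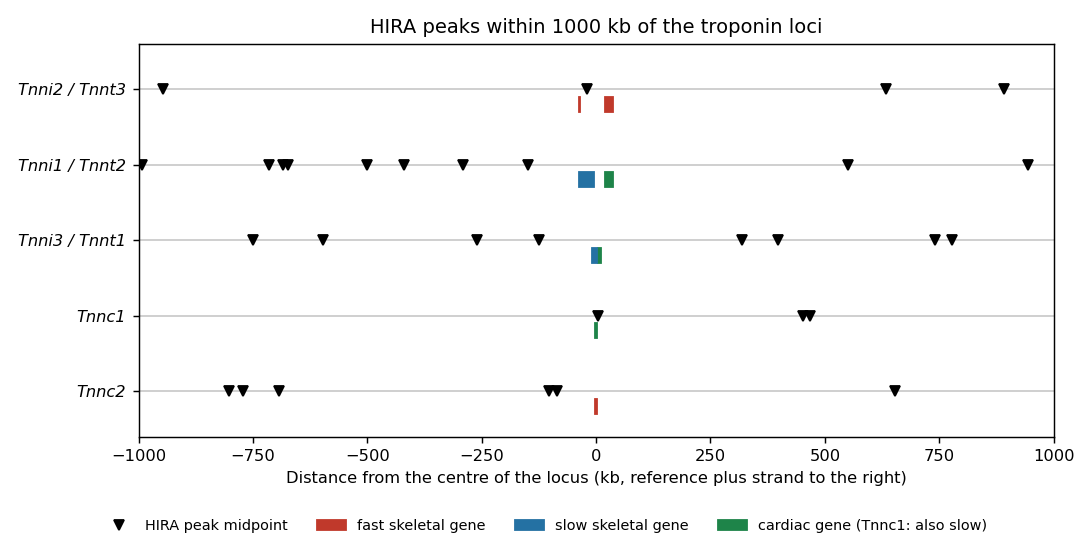
Midpoints of HIRA peaks (triangles) within 1000 kb of each troponin locus, with gene bodies coloured by muscle type, on a horizontal axis in kb from the centre of the locus. A peak lies between the genes of the pair Tnni2 and Tnnt3 and beside Tnnc1, while the other loci have their nearest peak 83.3 to 115 kb away.

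The fast skeletal pair was the I and T pair nearest to a peak. Tnni2 (ENSMUSG00000031097.15), the fast skeletal inhibitory subunit, occupies chr7:142441808-142444410 on the plus strand. Tnnt3 (ENSMUSG00000061723.18), the fast skeletal tropomyosin-binding subunit, occupies chr7:142498836-142516009 on the same strand. Between them are 54.4 kb, which hold Lsp1, a gene for an actin-binding protein of white blood cells, and part of Prr33. Prr33 is annotated as a long non-coding RNA on the opposite strand and overlaps the end of Lsp1 and the start of Tnnt3. In this interval stood 1 peak, at chr7:142459187-142459848, and the study called it the TTe site. From its edges there were 14.8 kb back to Tnni2 and 39.0 kb onward to Tnnt3. Among protein-coding genes, 15.5% were at least as near to a peak as Tnni2 and 25.3% as near as Tnnt3.

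The distance to the start of a transcript depends on which start is taken. For Tnni2, with 8 transcripts from 7 starts, the midpoint of the peak was between 15.7 and 17.7 kb from a start. For Tnnt3, with 27 transcripts from 10 starts, it was between 39.3 and 54.6 kb away. Of the Tnnt3 transcripts, 8 began at the outermost start and another 8 began together at 142501638, which is 42.1 kb from the midpoint. The peak was therefore nearer to every start of Tnni2 than to any start of Tnnt3. Both genes read in the same direction, so that it stood downstream of the I gene and upstream of the T gene.

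No protein-coding gene lay between Tnni2 and the peak, and Lsp1 lay between the peak and Tnnt3. Lsp1 itself was the nearest gene, with its body beginning 0.961 kb beyond the peak. In the RefSeq annotation Lsp1 starts earlier, at 142458223, so that there the peak is inside it. This peak was the nearest one for 28 protein-coding genes, of which Lsp1 ranked 1, Tnni2 ranked 2, Syt8 ranked 3 at 18.8 kb and Tnnt3 ranked 4. Proximity alone thus places it closer to Lsp1 than to either troponin gene. The study tied the peak to the troponin genes on other evidence, which was not examined here. In its Hira mutant hearts Tnni2 and Tnnt3 rose, and no change of Lsp1 was seen. Tnnt1, whose nearest peak was 115 kb away, was lower in these hearts. The study also cites earlier work in which NKX2.5 bound the site and repressed both troponin genes. In its own assays HIRA was enriched at the site by quantitative PCR of precipitated DNA, and the site overlapped marks of active enhancers. NKX2.5 binding there was reduced in the mutant hearts. In differentiated embryonic stem cells H3.3 was enriched there only where HIRA was present.

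The surroundings of the pair were otherwise free of peaks. The next peak to the left was in intron 2 of 10 of Chid1 (chr7:141531582-141531762), 927 kb from the TTe peak, and 10.4% of the gaps between neighbouring peaks were at least as wide. To the right the next was in intron 1 of 15 of Kcnq1, a cardiac potassium channel gene (chr7:143112777-143112972), at 653 kb, and 20.1% of gaps were at least as wide. The median gap was 273 kb. Of all peaks, 4.24% were at least as far from their nearest neighbour as the TTe peak. Within 500 kb of the pair it was the only peak, where the median protein-coding gene had 3, and within 1000 kb there were 4, where the median was 5. Without it the distance from Tnni2 would be 910 kb and that from Tnnt3 597 kb.

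The TTe peak was also wide and free of multi-copy words. At 662 bases it ranked 21 by width among 6624 peaks, whose median was 185 bases. Of its bases 4.08% were soft-masked, meaning marked as repeats in the reference, against a median of 82.2% over all peaks, and its GC content was 50.3%, against a median of 45.6%. None of its 631 words of 32 bases occurred a second time in the genome. Of the 21 peaks at least as wide, 2 had this property, and 964 of all 6624 did. Reads from such sequence can be placed without ambiguity.

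The GA repeat was present in the TTe peak. The printed sequence holds a run of 11 alternating G and A bases at 142459615 to 142459625, 98 bases right of the midpoint, which gives 2 overlapping matches to GAGAGAGA. Windows of 662 bases centred on each of the 6624 peaks held the repeat in 22.2% of cases. Within 100 kb of the pair there were 57 such runs of 8 or more bases, and 1 of them lay in a peak. Of the others, 14 were longer than the one in the peak, the longest of 57 bases at 24.1 kb from the pair, and 5 runs lay in the bodies of the troponin genes. Over the 21 chromosomes 1701 of 599355 runs (0.284%) were inside a peak.

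A match to TNAAGTG, the NKX2-5 core, stood at the left end of the TTe peak, at 142459201 to 142459207 on the minus strand, 316 bases left of the midpoint. It was found in 27.6% of windows of this width at all peaks. CANNTG matched 5 times, of which 4 are in the central sequence above, and 92.2% of the windows held it. There were 0 matches to AGATAA, a form of the site of the zinc finger factors that include GATA4, and 31.4% of the windows held it. Only these exact letters were searched, so the count does not show that the peak lacks a site of these factors. There were also 0 matches to CATTCCT, the muscle element bound by TEAD proteins (13.3% of the windows), and 0 to the repeat CACACACA (22.9%). All motifs were searched on both strands as exact letters, and a match is no measure of binding.

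**Figure D2:**
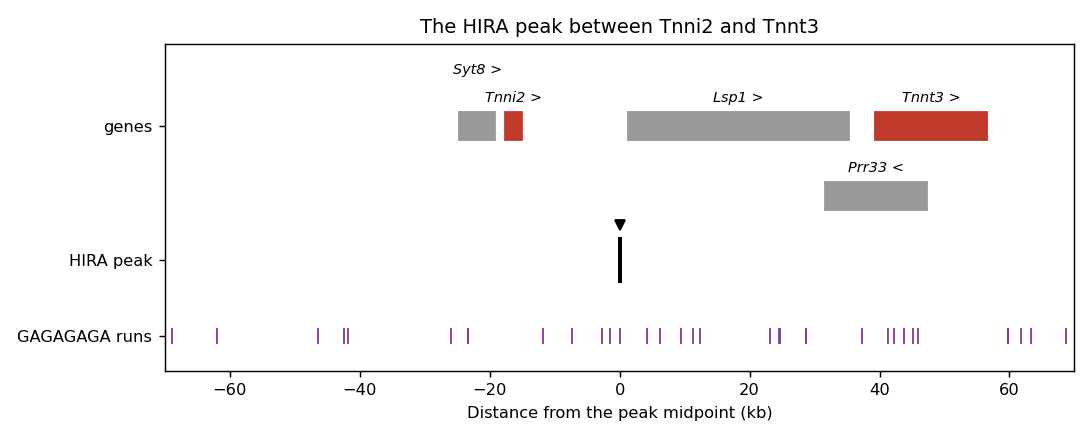
Map of the fast skeletal pair in kb from the midpoint of the TTe peak, with gene bodies (troponin genes in red, arrows for strand), the peak to scale and each run of 8 or more alternating G and A bases. The peak stands 14.8 kb from Tnni2 and 39.0 kb from Tnnt3, next to Lsp1, and 1 of the runs falls inside it.

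The second pair joins a slow skeletal to a cardiac gene. Tnni1 (ENSMUSG00000026418.16), the slow skeletal form of troponin I, which the embryonic heart also uses, occupies chr1:135779434-135810989 on the plus strand. Tnnt2 (ENSMUSG00000026414.13), cardiac troponin T, follows on the same strand at chr1:135836354-135852260. The 25.4 kb between them hold Lad1, a gene for a protein of epithelial basement membranes, and 0 peaks. Both had the same nearest peak, chr1:135667651-135667823, upstream of the pair. It was 112 kb from Tnni1 and 169 kb from Tnnt2, and Tnnt2 was the farthest of the 8 genes. Among protein-coding genes 48.7% were at least as near to a peak as Tnni1 and 62.2% as Tnnt2.

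Most transcripts of Tnni1 begin well inside its annotated body. The outermost start, at 135779434, belongs to 1 non-coding transcript and was 112 kb from the midpoint of the peak. The other starts reached from 115 to 137 kb, and 4 transcripts that begin between 135799402 and 135799511 were at 132 kb. For Tnnt2 the starts were 169 to 182 kb away, and 5 of its 15 transcripts shared a start at 173 kb. The promoters that RefSeq gives for the genes were at 131 kb for Tnni1 and 168 to 169 kb for Tnnt2.

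The peak left of this pair is narrow, with 173 bases and a width rank of 4471. It lies in the only intron of the long non-coding RNA gene Gm38399 in GENCODE and inside Nav1 in RefSeq. Its nearest protein-coding gene in GENCODE was Csrp1, a LIM-domain gene, at 52.2 kb, and Csrp1 and Phlda3 lay between it and Tnni1. Repeats made up 5.78% of it, 0 of its 142 words were multi-copy, and none of the 6 motifs matched. On the other side the next peak was at chr1:136366182-136366355, 555 kb from Tnni1 and 514 kb from Tnnt2, and 20.1 kb from Camsap2. The pair thus sat in a gap of 698 kb, and 18.0% of gaps between peaks were at least as wide. Within 500 kb it had 4 peaks, all but the nearest of them farther than 250 kb.

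The third pair joins a cardiac to a slow skeletal gene and is the most compact. Tnni3 (ENSMUSG00000035458.15), cardiac troponin I, occupies chr7:4518305-4524229 on the minus strand. Tnnt1 (ENSMUSG00000064179.13), slow skeletal troponin T, lies downstream on the same strand at chr7:4504570-4516382. They are 1.92 kb apart with no gene and 0 peaks between them. Their nearest peak, chr7:4389525-4389831, was downstream of both, 115 kb from Tnnt1 and 128 kb from Tnni3. Of protein-coding genes, 49.7% were at least as near as Tnnt1 and 53.3% as Tnni3. Measured from the midpoint, the starts of Tnnt1 were 118 to 127 kb away and those of Tnni3 130 to 135 kb.

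This peak lies in intron 3 of 7 of Gp6, the gene for a collagen receptor of platelets, and Gp6, Rdh13, Eps8l1 and Ppp1r12c separate it from Tnnt1. It is 307 bases wide and ranked 386. Soft-masked bases made up 91.2% of it, and 252 of its 276 words (91.3%) occurred more than once, with up to 248 copies. CANNTG matched 2 times, and 71.3% of windows of 307 bases at all peaks held it, while the other motifs had 0 matches. On the far side the next peak was in intron 3 of 5 of Shisa7 (chr7:4832336-4832506), 308 kb upstream of Tnni3 and 316 kb upstream of Tnnt1. It is 96.5% soft-masked and holds 17 overlapping matches to GAGAGAGA. The peaks on both sides of this cardiac and slow pair were thus mostly repeat sequence, unlike the TTe peak, and when peaks with 50% or more soft-masked bases were left out the nearest one was 2273 kb from the pair.

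The distances were also grouped by muscle type instead of by neighbourhood. The fast skeletal genes were at 14.8 kb (Tnni2) and 39.0 kb (Tnnt3), the slow skeletal genes at 112 kb (Tnni1) and 115 kb (Tnnt1), and the cardiac genes at 128 kb (Tnni3) and 169 kb (Tnnt2). In the full list the I gene of each type was nearer than the T gene, and the slow genes were nearer than the cardiac ones, but both orders turned under other settings. With RefSeq bodies Tnni1 was at 115.2 kb and Tnnt1 at 114.7 kb. With only the peaks wider than the median, Tnni1 was at 255 kb, farther than Tnnt1 at 115 kb and Tnni3 at 128 kb. With only the peaks under 50% soft-masked, Tnni3 was at 2273 kb and Tnnt1 at 2281 kb, farther than Tnnt2 at 169 kb. The slow and the cardiac genes are on different chromosomes within each type, and the peaks of both mixed pairs are each the nearest for a slow gene and a cardiac gene together, so the 6 values rest on 3 peaks. The slow genes differ from each other by 3.13 kb, and Tnni1 differs from Tnni3 by 16.9 kb, and with no error on a peak position their order is a description of this list alone. By subunit, the I genes ranged from 14.8 to 128 kb with a median of 112 kb, and the T genes from 39.0 to 169 kb with a median of 115 kb.

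**Figure D3:**
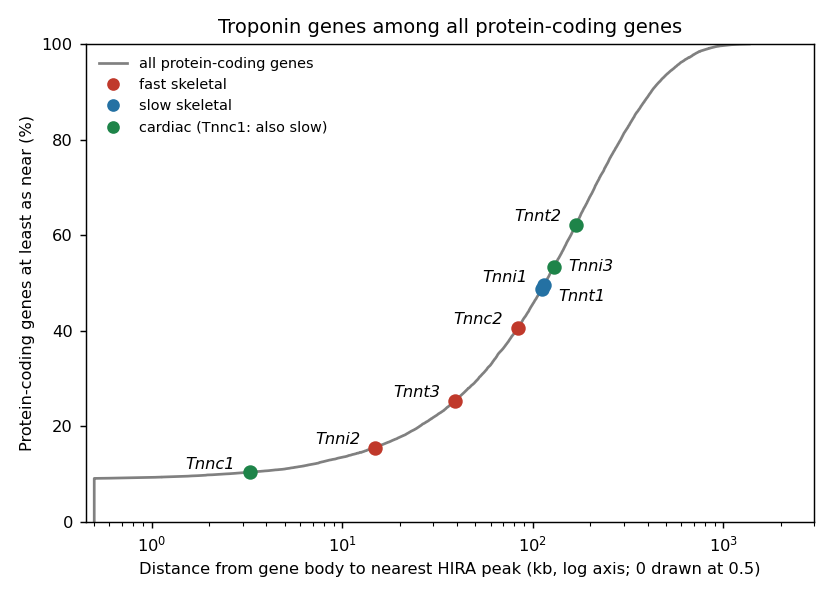
Cumulative share of all protein-coding genes (vertical axis, percent) by distance from gene body to nearest HIRA peak (horizontal axis, kb, log scale), with the 8 troponin genes on the curve. Tnnc1, Tnni2 and Tnnt3 lie in the near part, at 10.4 to 25.3%, and the slow and cardiac I and T genes between 48.7 and 62.2%.

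The C genes stand alone, and they differed. Tnnc1 (ENSMUSG00000091898.8), the calcium-binding subunit of cardiac and slow muscle, occupies chr14:31208312-31211729 on the plus strand. Its nearest peak, chr14:31215000-31215189, began 3.27 kb past its end, the shortest distance of the family, and 10.4% of protein-coding genes were at least as near. From the midpoint of the peak its 3 transcript starts were all 6.76 to 6.78 kb away. By the transcript start, therefore, no troponin gene was within 5 kb of a peak.

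The Tnnc1 peak was closer to other genes. It lies in intron 1 of 3 of a non-coding transcript of Nisch, a gene that runs in the opposite direction and overlaps the whole of Tnnc1 in GENCODE, and it ends 2.67 kb before Sema3g, a semaphorin gene. In RefSeq Nisch ends before this point and the peak lies outside of genes. It was the nearest peak of 22 protein-coding genes, of which Tnnc1 ranked 3, after Nisch and Sema3g. With 190 bases it ranked 2792 by width, close to the median. It had 0% soft-masked bases and 0 of 159 multi-copy words, and in these respects it was like the TTe peak, but it held 0 matches to GAGAGAGA (15.9% of windows of 190 bases) and to TNAAGTG (6.79%). CANNTG matched 1 time, in 54.5% of such windows. On the other side the next peak was 1000 kb upstream of Tnnc1 (chr14:30208059-30208236), in intron 3 of 47 of the calcium channel gene Cacna1d. Its midpoint was also 409 bases from a transcript start of Gm47570. Of all gaps, 8.71% were at least as wide as the 1007 kb between the peaks on both sides of Tnnc1.

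Tnnc2 (ENSMUSG00000017300.9), fast skeletal troponin C, occupies chr2:164777161-164779967 on the minus strand. Its nearest peak, chr2:164693693-164693864, was 83.3 kb downstream, and 40.6% of protein-coding genes were at least as near. Its starts were 86.0 to 86.2 kb from the midpoint. This was farther than either of the fast skeletal I and T genes, which are on another chromosome. Between it and the peak are Spint4, Spint5, Wfdc3, Dnttip1 and Ube2c, and the peak is 4.64 kb from Spint4, a protease inhibitor gene.

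The Tnnc2 peak begins with 17 copies of GAA, a run of 51 bases, as the printed sequence shows. This is a purine tract, but it holds no match to GAGAGAGA, which 15.1% of windows of 172 bases did. Soft-masked bases made up 50.6% of the peak, and 28 of its 141 words (19.9%) were multi-copy, the commonest with 200415 copies. On the upstream side the next peak was 651 kb away in intron 5 of 12 of Slc13a3 (chr2:165430878-165431062), and 100% of its bases were soft-masked. Within 100 kb of Tnnc2 there was 1 peak and within 250 kb there were 2.

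The 11 peaks that flank the family differed widely in their sequence. Of the 5 nearest ones, 3 were free of multi-copy words and 1, the TTe peak, held GAGAGAGA. Of all 11, 6 were free of multi-copy words and 3 held the repeat, and over the whole list these were 964 and 1063 of 6624. The study reported a GAGA motif in a larger share of its peaks, and its count may not rest on the exact letters used here. Runs of alternating G and A were found around every locus, whether or not a peak contained one. Within 100 kb there were 80 around Tnni1 and Tnnt2, 68 around Tnni3 and Tnnt1, 33 around Tnnc1 and 47 around Tnnc2, and 0 of these were in a peak. The bodies of Tnni1 and Tnnt2 alone held 19 runs, and the longest within 100 kb of that pair, of 64 bases, was 2.35 kb from it.

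**Figure D4:**
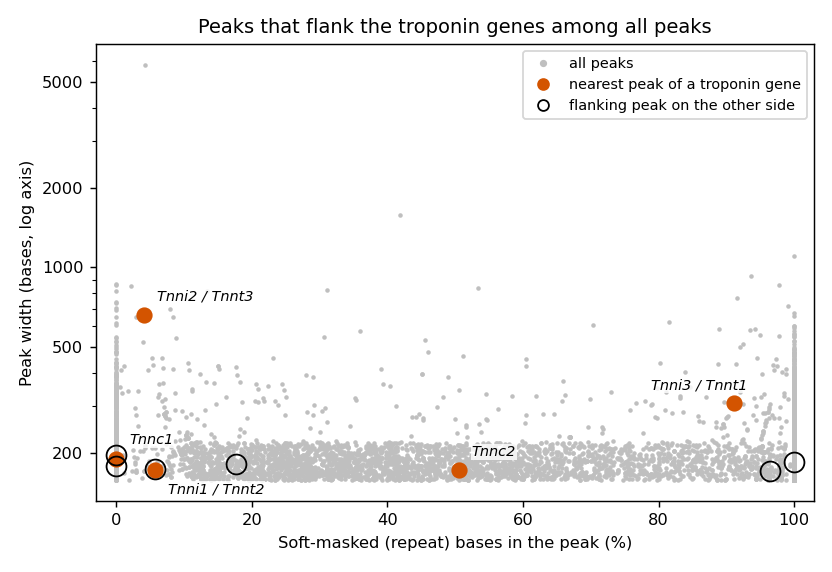
Width (vertical axis, bases, log scale) against the share of soft-masked bases (horizontal axis, percent) of all 6624 peaks in grey, with the 5 nearest peaks of troponin genes filled and the 6 flanking peaks on the other side as open circles. The peak of Tnni2 and Tnnt3 stands above the others at 662 bases and 4.08%, and that of Tnni3 and Tnnt1 is at 307 bases and 91.2%.

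The promoters of the troponin genes were searched for the same motifs. RefSeq promoter sequence of GRCm38.p6, from 250 bases before to 50 after a start, was at hand for 6 of the 8 genes, all but Tnni2 and Tnnt3. GAGAGAGA and TNAAGTG matched in 0 of the 6, and in 3.93% and 11.5% of all 32851 promoters. CACACACA matched at Tnni1 (4.09% of promoters), and AGATAA (11.2%) and CATTCCT (5.36%) both matched at Tnnt2. CANNTG was in all 6 and in 72.3% of promoters. The counts here are by gene and the shares by promoter, and Tnni1 and Tnnt2 have more than a single promoter. The promoter nearest to a peak was that of Tnnc1, at 6.64 kb, and the others were 85.8 to 169 kb away.

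Partners of troponin on the thin filament were counted in the same way. The list for reference had 11 genes for actins, tropomyosins, tropomodulins, leiomodins and nebulins, and 5 of them held a peak in the body, against 8.9% of protein-coding genes. These were the tropomyosin genes Tpm1 and Tpm3 but not Tpm2, Tmod1, which caps the pointed end of the filament, Lmod3, which nucleates actin, and Nebl, the cardiac relative of nebulin. Tmod4 was 4.85 kb from a peak, Neb 8.14 kb, Tpm2 52.1 kb and Actc1, the cardiac actin gene, 87.9 kb, while Acta1 and Lmod2 were 211 and 213 kb away. The median over the 11 genes was 4.85 kb, against 97.5 kb for the troponins. Their bodies are longer than those of the troponins, with a median of 14.2 kb and up to 388 kb in Nebl. Over all protein-coding genes the median body was longer, at 17.4 kb. The part of length in these differences was not tested. The Tpm3 peak (chr3:90080511-90080669) was within 1 kb of a transcript start and had 0% soft-masked bases, the Tmod1 peak (chr4:46066030-46066220) in intron 2 of 9 held 1 match to GAGAGAGA, and the Nebl peak (chr2:17352668-17352854) in intron 26 of 27 was 100% soft-masked with 71.2% multi-copy words.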

How the data were processed

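HIRA ChIP-seq was carried out by the authors on 1 pool of 30 WT CD1 hearts at E12.5, cross-linked with EGS and formaldehyde. Per the methods, Bowtie2 placed the reads on mm10, reads of poor quality and duplicates were dropped, and the MACS algorithm of Strand NGS called peaks over the input. The deposited file holds positions of 6624 peaks and no score or other measured value. Per the file headers the p-value cutoff was 0.001 and the fragment length 200 bases, whereas the methods give a stricter cutoff. With that stricter cutoff the paper reports nearly the same number of peaks as this list holds. Why the header differs is not known. Peaks in repeats depend on how reads with several placements were treated, which is not given in the sources used here. Reads and input were not analysed here, so the depth is unknown and limits the list to an extent that cannot be stated.

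Gene bodies and transcript starts came from GENCODE M21 (55413 genes, 21938 protein-coding) on GRCm38.p6, and all peaks fitted its 21 placed chromosomes. A distance runs from the edge of a body to the nearest peak edge and is 0 where they overlap. Distances from a transcript start run to the midpoint of the peak, except in the transcript start alternative of the closing section, where they run to the nearest peak edge. Intron numbers refer to the longest transcript that spans the peak midpoint. Copies were counted for words of 32 bases over the placed chromosomes and on both strands. Python 3.11.15, numpy 2.4.6, pandas 2.3.3, numba 0.67.0 and matplotlib 3.10.9 were used, and the distance code was tested on simulated data. Genes named were the 8 troponin genes, the genes within a pair, the gene that holds or is nearest to each flanking peak and a thin filament list. Genes that stand between a troponin gene and its nearest peak, and Syt8, were added after their values were seen. The members, lists and motifs were chosen with earlier results of these data known. No test was made, because there is 1 library.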

Additional observations from a re-analysis of the deposited data

How the results depend on the processing

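Distances and counts were recomputed with wider peaks only (3233), with peaks within 1 kb merged (6543), with peaks that hold a word found once in the genome (4492), with peaks under 50% soft-masked (2339), with RefSeq gene bodies, from the nearest transcript start, to the peak midpoint, and with windows of 10, 25, 100 and 250 kb in place of 50 kb. Of 60 alternative values for the answers, 54 moved by no more than 1.5 times. By the nearest transcript start, measured to the peak edge, the number of troponin genes within 5 kb fell from 1 to 0, and the distance of Tnnc1 rose from 3.27 to 6.67 kb. The number within 50 kb was 3, and it was 1 within 10 kb, 2 within 25 kb, 4 within 100 kb and 8 within 250 kb. Of all protein-coding genes 11.1% had a peak within 5 kb, 29.4% within 50 kb and 45.7% within 100 kb. Their shares within 10, 25 and 250 kb were not counted. As 15.5% of them were at least as near as Tnni2 (14.8 kb), the share within 10 kb lies between 11.1 and 15.5%. As 25.3% were at least as near as Tnnt3 (39.0 kb), the share within 25 kb lies between 15.5 and 25.3%. Their upper quartile of distance was 246 kb, so most of them also had a peak within 250 kb. With the wider peaks the distance of Tnni1 and Tnnt2 rose from 112 to 255 kb, and with the peaks under 50% soft-masked that of Tnni3 and Tnnt1 rose from 115 to 2273 kb. In both cases the shorter list no longer holds the nearest peak, and the median of all protein-coding genes also rose, from 116 to 258 and 312 kb. The median of the 8 troponin genes was 108 and 107 kb in these lists. Within 50 kb there were still 3 troponin genes, against 15.8% and 14.5% of protein-coding genes. With the peaks that hold a single-copy word there were also 3, against 23.4%. These 3 genes rest on the Tnnc1 and TTe peaks, which pass the filters by their own width and sequence. The distance of Tnni2 and Tnnt3 moved by less than 1.5 times in each alternative. The other peak lists could not move it. The TTe peak is wide, little soft-masked and free of multi-copy words, and its nearest neighbour is 653 kb away. Its staying is therefore no separate measure of stability. Of 56 values for single genes, 51 moved by no more than 1.5 times. No paired analysis was possible because the design has a lone ChIP library. The depth is unknown, so whether weaker sites near the slow and cardiac genes were missed cannot be judged.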
